A study of Mus musculus with 12 samples.

Results

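The genes described here are 34 DNA repair genes, measured by RNA sequencing in sorted bone marrow-derived basophils (BMBAs). A list of 35 symbols of homologous recombination, Fanconi anaemia, damage sensing, mismatch, excision and end-joining genes was searched in the deposited count table of 31301 genes, and the 34 with a mean level of at least 1 CPM (counts scaled to a common library total) over the 12 libraries were kept. The gene left out was Xrcc5, which codes for a subunit of the end-joining factor Ku and had 0 to 3 counts in a library. All 34 were among the 10861 genes that passed the filter on low counts and were tested.

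Marrow cells of wild-type C57BL/6J mice grew over 7 days under 1 of 2 recombinant cytokines, interleukin-3 (IL-3) at 0.3 ng/mL or TSLP (thymic stromal lymphopoietin) at 1 µg/mL, a dose whose unit differs between label fields and is printed as in the treatment protocol. Sorting gave an FcεRIαhi CD49blo fraction, named pre-basophils by the study and immature below, and an FcεRIαlo CD49bhi fraction, called mature. There were 4 groups of 3 libraries, from 3 cultures a group as the study states it, and the question was whether TSLP-elicited basophils resemble mature or immature cells of the IL-3 culture. No source used here says that libraries of the same number share a culture, an animal or a day, and all cells came from culture, not from tissue.

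DNA repair is divided by the lesion and by the time at which it acts. Homologous recombination copies the sister chromatid and therefore works in S and G2 phase, in step with the Fanconi anaemia pathway, which removes links between the strands at stalled forks. Mismatch repair corrects copying errors, base and nucleotide excision repair cut out damaged bases in cycling and resting cells alike, and non-homologous end joining seals broken ends at any phase. Basophils are short-lived granulocytes that leave the cell cycle as they mature.

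The library totals ran from 1720065 to 3685285 counts, and 1 count was worth 0.269 to 0.483 CPM after TMM normalisation (trimmed mean of M values), the scale of all levels below. Basophil markers were measured in every group. They summed to 41200 to 44700 CPM in immature and 11100 to 13900 in mature IL-3 libraries. In TSLP libraries the sums were 28700 to 31700 in immature and 8560 to 11900 in mature cells. The most abundant, Prss34, was at 17000 to 21100 CPM in immature and 681 to 913 in mature IL-3 libraries. Cd200r3 went the other way, at 659 to 763 and 1180 to 1390 CPM. By the test used below, 5 of the 10 markers were higher and 3 lower in IL-3 immature cells, against 22.1% and 24.1% of all genes. TSLP mature 1 stood apart from the other libraries of its group. Its 13 B lineage markers summed to 202 CPM, against 26.6 and 26.7 in the other two, and its 12 neutrophil markers to 847 CPM, against 62.1 and 54.5. The B lineage sums were 7.11 to 8.21, 3.63 to 4.61 and 37.7 to 42.7 CPM, and the neutrophil sums 843 to 923, 311 to 436 and 417 to 531 CPM, in IL-3 immature, IL-3 mature and TSLP immature libraries. Results that rest on this library are given with and without it. The most abundant B lineage marker was Cd79b and the most abundant neutrophil marker Mpo. Mpo was at 648 to 757 CPM in IL-3 immature libraries and at 16.9 in TSLP mature 1. S100a9 was at 18.1 to 40.6 and at 282 CPM there, so similar neutrophil sums stand for different genes. Erythroid markers summed to at most 8.25 CPM, with Hbb-bs, Car1 and Alas2 at 0 in all libraries, and the mast cell genes Tpsab1 and Mrgprb2 were also at 0 in all libraries. T and NK lineage markers summed to at most 9.94 CPM. Mast cell markers summed to 180 to 966 CPM, 368 to 966 in IL-3 immature and 330 to 385 in IL-3 mature libraries. Nearly all of this was the gene Slc18a2, with 957 of 966 CPM in IL-3 immature 1. Kit was at 0 to 1.45 CPM and Tpsb2 at 0 to 5.32. Monocyte and macrophage markers summed to 127 to 153 CPM in immature and 635 to 796 in mature IL-3 libraries. Under TSLP they summed to 382 to 445 CPM in immature and 622 to 932 in mature libraries. The part of such cells in the results was not tested. In bulk RNA, fewer cells of a type and less RNA per cell cannot be told apart.

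In the IL-3 culture the repair genes as a list were higher before maturation, and those of homologous recombination and the Fanconi anaemia pathway by the larger factors. Of the 34 genes, 26 were higher and 1 was lower in immature than in mature cells by the quasi-likelihood F test of edgeR (adjusted p under 0.05). Among all genes tested, 22.1% were called higher and 24.1% lower, 46.2% in all. The median log2 fold change was 2.38 over the repair genes and -0.06 over all genes tested. The 16 S-phase-linked genes (homologous recombination and Fanconi anaemia) had 14 higher and a median of 4.54. The 7 sensing and checkpoint genes had 6 higher and a median of 1.28. The 11 mismatch, excision and end-joining genes had 6 higher, 1 lower and a median of 1.3. In 27 of 34 genes all 3 immature libraries lay above all 3 mature libraries, and in 1 they lay below, against 27.8% and 30% of all genes tested. In the test of any difference among the 4 groups 30 of the 34 passed, against 60.8% of all genes, and those that did not were Atr, Ercc1, Xrcc4 and Lig4.

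**Figure D1:**
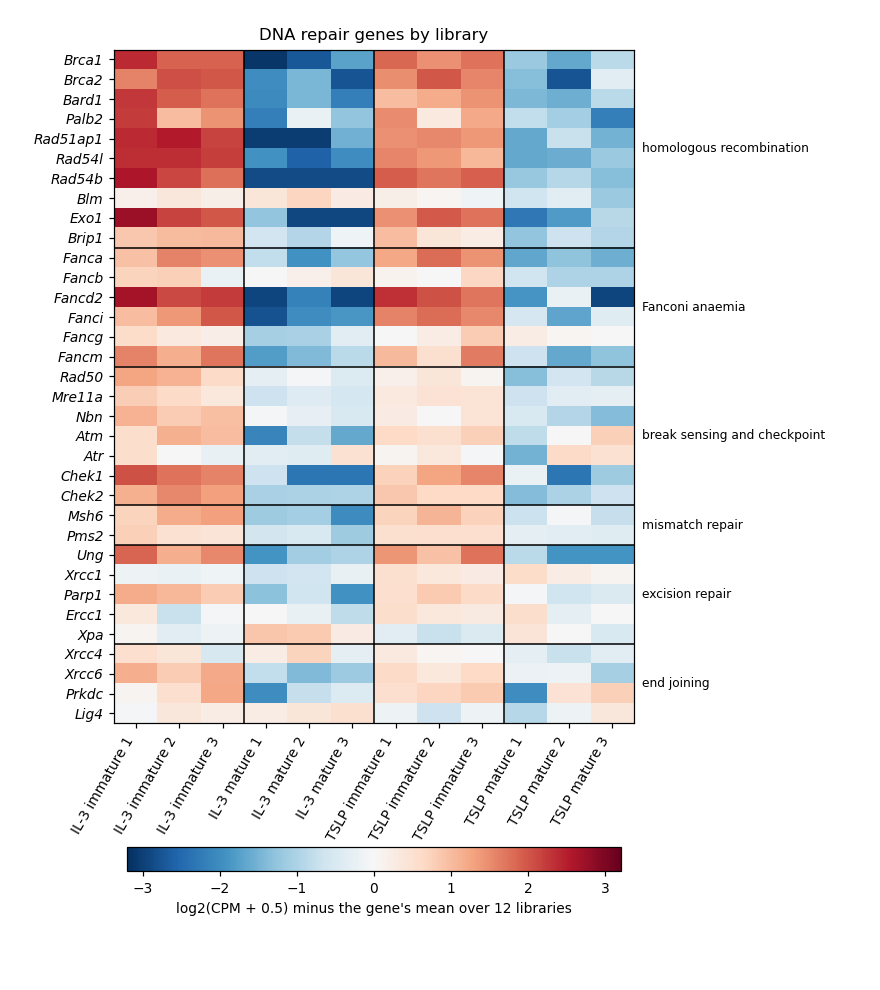
Level of each of the 34 repair genes (rows, grouped by role) in each of the 12 libraries (columns), as log2(CPM + 0.5) minus the gene's mean over the 12 libraries. Red fills the IL-3 and TSLP immature columns through most of the homologous recombination and Fanconi anaemia rows, while Blm, Fancb, Xrcc1, Ercc1, Xrcc4 and Lig4 stay pale in the IL-3 columns.

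Most repair genes were also higher in immature cells of the TSLP culture. Here 25 of 34 genes were higher and 0 lower in immature than in mature cells by edgeR, with 12.2% of all genes called higher and 12.9% lower, 25.2% in all. At an unadjusted p under 0.05 the same test also had 25 higher and 0 lower, and DESeq2 called 25 higher and 0 lower. The medians were 3.04 over the S-phase-linked genes (15 of 16 higher), 1.17 over the sensing and checkpoint genes (5 of 7) and 0.65 over the mismatch, excision and end-joining genes (5 of 11), against -0.03 over all genes tested. Without TSLP mature 1 the counts were 15, 5 and 5 again and the medians 3.08, 1.08 and 0.83. In 26 genes the immature libraries lay above the mature ones, against 17.9% of all genes tested, and in 0 they lay below, against 20.4%.

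**Figure D2:**
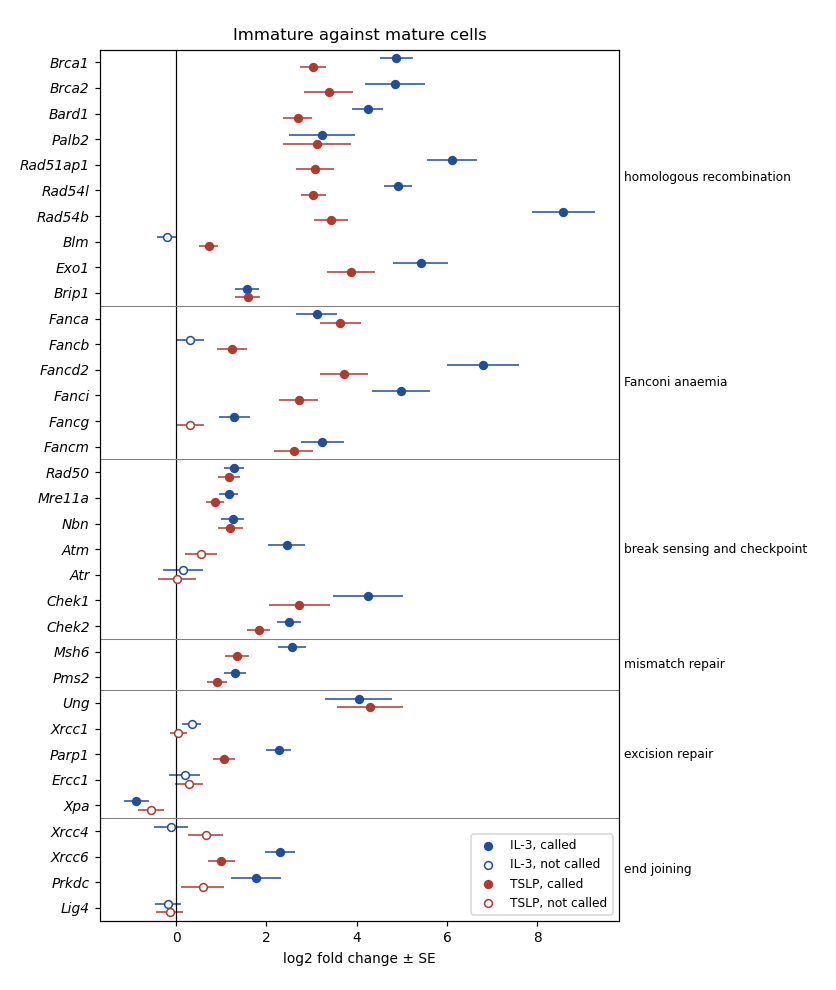
Log2 fold change of immature against mature cells (x axis, with its standard error) for the 34 repair genes, in IL-3 cultures (blue) and TSLP cultures (red), where filled points passed the test. Homologous recombination and Fanconi anaemia genes reach fitted log2 values of 8.58 (Rad54b, with 0 counts in IL-3 mature cells) and 6.8 (Fancd2, with 1 count there) in IL-3 cultures, where Lig4 and Xrcc4 sit at -0.18 and -0.11.

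Genes that cycling cells express in late G1 and S phase are often driven by E2F transcription factors, and since most repair genes were higher in the same fractions, their promoters were searched for 4 E2F words (TTTGGCGC, TTTCCCGC, TTTCGCGC and TTTGCCGC, both strands). RefSeq promoters (GRCm38.p6, 250 bases before to 50 after the start) were at hand for 28 of the 34 genes; those of Rad54b, Exo1, Fancd2, Rad50, Nbn and Prkdc were not. A word was found in 6 of 28 genes (21.4%), against 2.6% of 27025 genes with a promoter in the same table and 2.3% of its 32851 promoters. The background held all genes, expressed or not, and was not matched for base composition, whose part in this difference was not tested. The 6 were spread over the classes, with 3 of 13 S-phase-linked, 1 of 5 sensing and checkpoint and 2 of 10 mismatch, excision and end-joining genes. The stretches are shown because these genes carry the match in each of the 3 repair classes. Each is 30 bases, 5′ to 3′ on the strand of the gene, with the E2F word in capitals:
Bard1 (chr1:71103163-71103192, minus strand): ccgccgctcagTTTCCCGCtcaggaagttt
Brca2 (chr5:150522442-150522471, plus strand): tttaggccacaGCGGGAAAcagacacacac
Fancg (chr4:43010335-43010364, minus strand): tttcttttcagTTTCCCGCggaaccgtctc
Chek2 (chr5:110839820-110839849, plus strand): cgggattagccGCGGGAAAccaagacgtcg
Msh6 (chr17:87975054-87975083, plus strand): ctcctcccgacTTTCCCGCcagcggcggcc
Xrcc6 (chr15:82016312-82016341, plus strand): agggggtggaaGCGGGAAAtgcgagtgggc

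All 6 held the word TTTCCCGC or its reverse complement. It began 209 bases before the RefSeq start in Bard1, 168 in Brca2, 152 in Chek2, 52 in Fancg and 46 in Xrcc6, and at base 16 of the transcript in Msh6. In the GENCODE vM21 annotation the stretches of Bard1, Brca2 and Chek2 lay in no gene, and those of Fancg, Msh6 and Xrcc6 in an exon of the gene itself, the last also in an intron of Desi1. Of the 6 genes with a word, 6 were higher in IL-3 immature cells (median log2 fold change 2.53), as were 14 of the 22 without one (1.92). In TSLP cultures the counts were 5 of 6 and 15 of 22. Brca1, Rad54l and Fanci, with some of the larger changes, were among those without a word in this window. A match is a description of letters and no measure of binding. The cell cycle homology region (TTTGAA, both strands) was in 1 of 28 promoters (3.6%, against 20.2% of all genes) and CCAAT (both strands) in 17 (60.7%, against 41.1%). Neither overlapped an E2F word in the 6 stretches.

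Among the homologous recombination genes, those for strand invasion and its mediators were at a few CPM or less in mature cells. Brca1, which codes for the E3 ligase that promotes end resection (ENSMUSG00000017146, chr11:101488764-101551955, minus strand, GRCm38), was at 54.1, 37.8 and 37.9 CPM in immature and 0.709, 1.09 and 2.69 in mature IL-3 libraries, and 36.5, 28 and 34.2 in immature and 4.03, 2.82 and 5.21 in mature TSLP libraries. The 4 groups did not overlap, with the IL-3 and TSLP immature libraries on top and the IL-3 mature ones at the bottom. The level was 29.6-fold higher in IL-3 immature than in IL-3 mature cells (95% interval of counting error 16.4 to 59.9, log2 fold change 4.88 ± 0.357, adjusted p = 2.26e-08) and 8.34-fold higher in TSLP immature than in TSLP mature cells (6.03 to 11.8, log2 3.03 ± 0.288, adjusted p = 1.33e-06).

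Bard1, the obligate partner of the BRCA1 protein, was at 30.4, 23.9 and 20.8 CPM in immature and 1.06, 1.81 and 0.898 in mature IL-3 libraries, and 12.3, 14 and 17 in immature and 1.88, 1.69 and 3.06 in mature TSLP libraries. Every immature library lay above every mature one. Log2 fold changes of 4.24 ± 0.35 for IL-3 (adjusted p = 8.44e-08) and 2.69 ± 0.313 for TSLP (adjusted p = 1.06e-05) separated the fractions. Rad54l, which codes for a DNA motor protein of strand invasion (chr4:116094264-116123690, minus strand), was at 37.2, 37.3 and 34 CPM in immature and 1.42, 0.725 and 1.35 in mature IL-3 libraries, and 21.3, 18.7 and 14.9 in immature and 1.88, 1.98 and 2.76 in mature TSLP libraries. The 4 groups did not overlap, from IL-3 immature down through TSLP immature and TSLP mature to IL-3 mature. The gene had the smallest p of the list in the test of any difference among the groups (adjusted p = 1.62e-09), with log2 fold changes of 4.92 ± 0.307 (adjusted p = 3.67e-09) and 3.04 ± 0.271 (adjusted p = 7.12e-07) between immature and mature cells in IL-3 and TSLP cultures. Of its exonic bases, 15.4% overlap the opposite-strand gene Lrrc41, which was not called in any of the 5 comparisons.

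Rad54b, a relative of Rad54l (chr4:11558922-11615805, plus strand), was listed at 0 in all 3 IL-3 mature libraries. It was at 21.3, 15.4 and 11.9 CPM in IL-3 immature, 13.5, 11.3 and 13.2 in TSLP immature and 1.07, 1.41 and 0.919 in TSLP mature libraries, and thus low but present in each TSLP mature library. Against a floor of 3 counts over the IL-3 mature group (0.384 CPM), it was at least 40.4-fold higher in IL-3 immature than in IL-3 mature cells. Its value is uncertain, since 34.5% of its 50-base stretches also occur in transcripts of Fsbp, a gene inside the same locus, which went the same way (6.06 ± 1.5, 0, 3.3 ± 1.18 and 0.448 ± 0.776 CPM for immature and mature IL-3 and then immature and mature TSLP cells, SD, n = 3). Apart from Blm, the remaining genes of the role were also higher in immature cells of both cultures. Rad51ap1, which stimulates strand invasion, had log2 fold changes of 6.11 ± 0.55 in IL-3 and 3.08 ± 0.419 in TSLP cultures. For the end resection nuclease Exo1 they were 5.42 ± 0.612 and 3.88 ± 0.528. Brca2, a mediator of strand invasion, had 4.85 ± 0.67 and 3.38 ± 0.543, Palb2, which tethers BRCA2 to BRCA1, 3.23 ± 0.738 and 3.12 ± 0.748, and the helicase gene Brip1 1.57 ± 0.274 and 1.58 ± 0.277. These 5 passed the test in both cultures.

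Blm, coding for the helicase that dissolves recombination intermediates (chr7:80454733-80535119, minus strand), was the 1 gene of the role not called between the fractions of the IL-3 culture. It was at 40.1, 46.7 and 41.2 CPM in immature and 46.8, 58 and 43.1 in mature IL-3 libraries, and 40.7, 37.4 and 32.5 in immature and 23.1, 28.2 and 15.6 in mature TSLP libraries. In IL-3 cultures the immature and mature libraries overlapped (log2 -0.21 ± 0.207, adjusted p = 0.434, 95% interval -0.65 to 0.23), and the TSLP mature libraries were below all others. In TSLP cultures it was higher in immature cells (log2 0.72 ± 0.214, adjusted p = 0.0209), a call lost without TSLP immature 1 (adjusted p = 0.0723) or TSLP mature 3 (adjusted p = 0.0679), with only the libraries of these groups in the fit (adjusted p = 0.0634) and with counts thinned to the smallest library (log2 0.49, adjusted p = 0.193). On the CPM scale, not per length, Blm made up 43.1 to 58 of the 72 to 83.8 CPM that the 16 S-phase-linked genes summed to in IL-3 mature libraries.

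Of the Fanconi anaemia genes, 5 of 6 were higher in immature cells of each culture. Fancd2, which codes for a subunit of the clamp that the pathway ubiquitinates (chr6:113531682-113597017, plus strand), was at 23.7, 16.2 and 17.5 CPM in immature and 0, 0.363 and 0 in mature IL-3 libraries, and 18.9, 15.2 and 12.2 in immature and 0.537, 2.82 and 0 in mature TSLP libraries. The mature libraries held 1 count in all for IL-3 and 12 for TSLP. The IL-3 immature level was 144-fold that of IL-3 mature cells, with a counting interval of 25.5 to 5720. Its partner Fanci was at 6.28, 8.53 and 13.2 CPM in immature and 0, 0.363 and 0.449 in mature IL-3 libraries, and 9.88, 11.3 and 9.49 in immature and 1.88, 0.565 and 2.14 in mature TSLP libraries. The immature fractions of the 2 cultures overlapped. Fanca, of the core complex, was at 5.8, 9.39 and 8.57, then 1.42, 0.363 and 0.898, then 7.19, 10.9 and 8.48, and 0.537, 0.847 and 0.613 CPM in these groups in turn. Immature libraries of both cultures lay above all mature ones for these 3 genes, with log2 fold changes of 6.8 ± 0.795, 4.99 ± 0.642 and 3.11 ± 0.462 in IL-3 and 3.72 ± 0.532, 2.71 ± 0.438 and 3.64 ± 0.45 in TSLP cultures for Fancd2, Fanci and Fanca. Of the exonic bases, 16% in Fanci overlap the opposite-strand gene Polg and 10.5% in Fanca the opposite-strand gene Zfp276, which was lower in immature cells (-0.94 in IL-3 and -1 in TSLP cultures, adjusted p = 0.00783 and 0.00641), so reads in these stretches are uncertain.

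**Figure D3:**
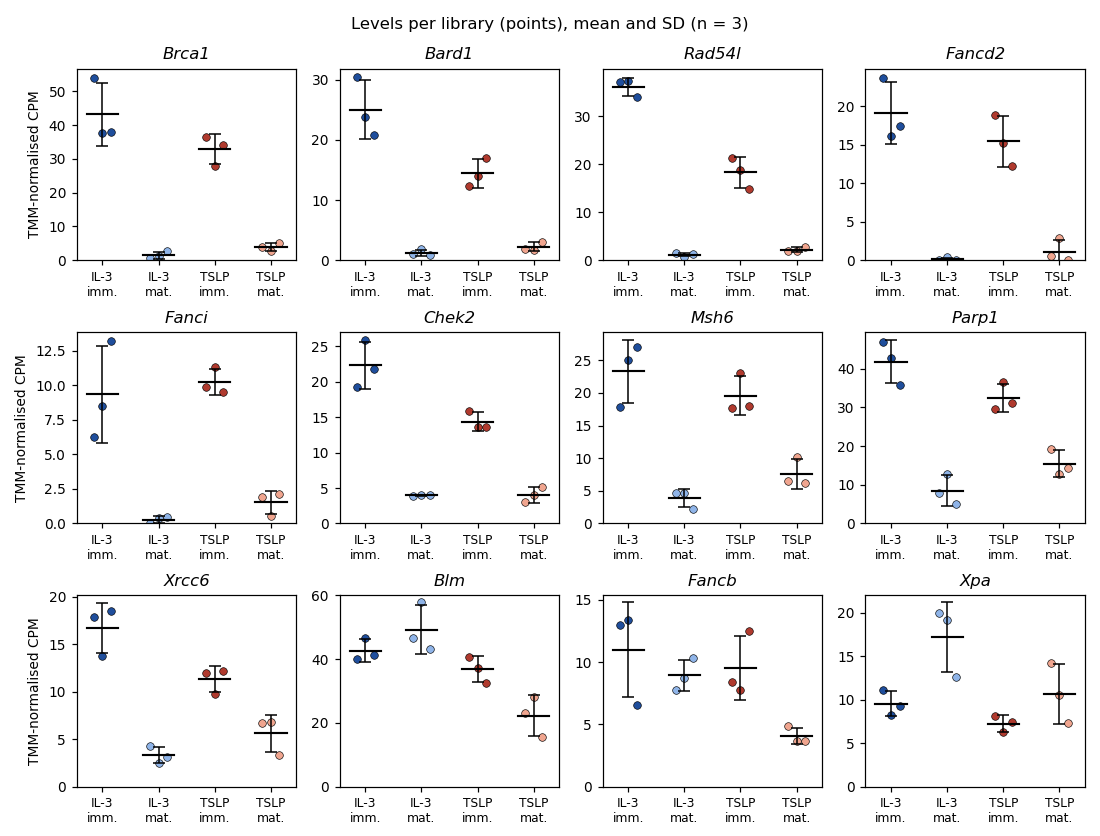
Levels in TMM-normalised CPM (y axis, linear) of 12 repair genes in the 4 groups, with a point for each library and the mean and SD (n = 3). Brca1, Bard1, Rad54l, Fancd2, Fanci and Chek2 are near the axis in mature cells, Blm and Fancb are lowest in TSLP mature cells, and Xpa is highest in IL-3 mature cells.

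Fancb, of the same core complex, was at 13, 13.4 and 6.59 CPM in immature and 7.8, 8.71 and 10.3 in mature IL-3 libraries, and 8.38, 7.78 and 12.5 in immature and 4.84, 3.67 and 3.68 in mature TSLP libraries. As with Blm, the IL-3 fractions overlapped (log2 0.3 ± 0.312, adjusted p = 0.459) and the TSLP mature libraries were the lowest, with a log2 fold change of 1.23 ± 0.333 between TSLP immature and mature cells (adjusted p = 0.0128). Fancm, the translocase that finds stalled forks, had 3.24 ± 0.478 and 2.6 ± 0.44. Fancg was called higher in immature cells of the IL-3 culture only (1.29 ± 0.346, adjusted p = 0.00619, against 0.31 ± 0.299, adjusted p = 0.484, in TSLP), and the difference between the cultures did not pass its test (-0.97 ± 0.459, adjusted p = 0.271).

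Both checkpoint kinase genes were higher in immature cells of each culture. Chek2, the kinase activated by ATM, was at 19.3, 25.9 and 21.8 CPM in immature and 3.9, 3.99 and 4.04 in mature IL-3 libraries, and 15.9, 13.6 and 13.6 in immature and 2.96, 3.95 and 5.21 in mature TSLP libraries, with little spread in IL-3 mature cells. Chek1, the kinase activated by ATR at stalled forks, had log2 fold changes of 4.25 ± 0.776 in IL-3 and 2.73 ± 0.67 in TSLP cultures, against 2.49 ± 0.265 and 1.83 ± 0.259 for Chek2. The 3 genes of the MRN complex, which binds broken ends, were higher in immature cells too. Rad50 was at 57.5, 52.1 and 36.6 CPM in immature and 19.1, 22.9 and 17.5 in mature IL-3 libraries, and 26.6, 31.1 and 25.1 in immature and 8.87, 15.3 and 12.6 in mature TSLP libraries. Each mature group was below each immature group and each TSLP group below its IL-3 counterpart. Nbn was at 21.3, 17.4 and 19.1, then 9.22, 7.98 and 6.74, then 11.7, 9.73 and 13.2, and 6.72, 4.8 and 3.37 CPM in the same order, with the same ranking. Log2 fold changes between immature and mature cells were 1.28 ± 0.228 and 1.17 ± 0.237 for Rad50, 1.25 ± 0.26 and 1.2 ± 0.276 for Nbn and 1.16 ± 0.212 and 0.86 ± 0.204 for Mre11a in IL-3 and TSLP cultures, and all passed the test.

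Of the 2 apical kinases of the response, Atm was called in IL-3 cultures and Atr was not. Atm, which answers to double-strand breaks, was at 16.4, 24.5 and 22.1 CPM in immature and 2.13, 6.17 and 3.14 in mature IL-3 libraries, and 17.1, 15.6 and 18.6 in immature and 5.91, 10.7 and 18.7 in mature TSLP libraries. It was higher in immature cells of the IL-3 culture (log2 2.45 ± 0.41, adjusted p = 0.000139), while in TSLP cultures the fractions overlapped (0.55 ± 0.344, adjusted p = 0.264, and 1.1, adjusted p = 0.0279, without TSLP mature 3). Atr, which answers to single-stranded DNA at forks, was at 9.23 to 16.4 CPM in immature and 8.34 to 15.7 in mature IL-3 libraries, and 10.5 to 14 in immature and 3.49 to 16.9 in mature TSLP libraries. It did not pass the test of any difference among the groups (adjusted p = 0.981), with log2 values of 0.15 ± 0.442 and 0.01 ± 0.419 between immature and mature cells. The 95% intervals of these were -0.78 to 1.09 and -0.88 to 0.9. Counts of Atm, Atr and Prkdc were low in TSLP mature 1, with 22, 13 and 8, against 38 and 61, 60 and 51, and 49 and 56 in the other libraries of the group.

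**Figure D4:**
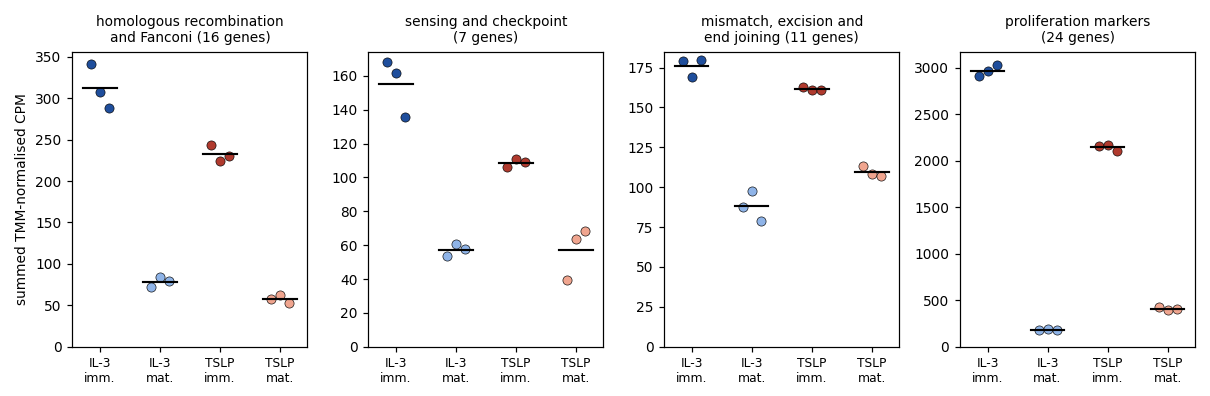
Summed TMM-normalised CPM (y axis, from 0, a scale for each panel) of the 3 repair classes and of 24 proliferation markers, with a point for each library and a line at the group mean. The S-phase-linked sum runs from 288 to 342 CPM in IL-3 immature and from 72 to 83.8 in IL-3 mature libraries, and the mismatch, excision and end-joining sum from 169 to 180 and from 79 to 97.9.

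Both mismatch repair genes were higher in immature cells. Msh6, whose product recognises mispaired bases, was at 17.9, 25 and 27 CPM in immature and 4.61, 4.72 and 2.25 in mature IL-3 libraries, and 17.7, 23 and 18 in immature and 6.45, 10.2 and 6.13 in mature TSLP libraries. Pms2, a subunit of the endonuclease that follows, was at 19.8, 16.2 and 15.2, then 7.44, 7.98 and 4.94, then 16.5, 16.7 and 16.6, and 9.13, 8.76 and 8.58 CPM. For both genes the immature fractions of the 2 cultures overlapped and lay above all mature libraries. The TSLP mature libraries lay above the IL-3 mature ones, a difference that passed the test for neither gene. The log2 fold changes were 2.57 ± 0.309 and 1.35 ± 0.273 for Msh6 and 1.3 ± 0.238 and 0.91 ± 0.221 for Pms2 in IL-3 and TSLP cultures.

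Of the base excision and single-strand break genes, Ung and Parp1 were called in both cultures and Xrcc1 in neither. Ung, the uracil glycosylase that removes uracil left in new DNA, was at 6.28, 3.7 and 4.95 CPM in immature and 0, 0.363 and 0.449 in mature IL-3 libraries, and 4.49, 3.11 and 5.76 in immature and 0.537, 0 and 0 in mature TSLP libraries. With 2 counts in each mature group, its ratio was 18.6 (4.82 to 158) in IL-3 and 23.8 (6.16 to 203) in TSLP cultures. Parp1, which marks single-strand breaks with poly(ADP-ribose), was at 46.9, 42.7 and 35.9 CPM in immature and 7.8, 12.7 and 4.94 in mature IL-3 libraries, and 29.6, 36.6 and 31.2 in immature and 19.3, 12.7 and 14.4 in mature TSLP libraries. It was higher in immature cells of both cultures (log2 2.27 ± 0.273 and 1.06 ± 0.249). Xrcc1, the scaffold of single-strand break repair, was at 18.4, 17.9 and 18.8 CPM in immature and 12.8, 13.4 and 17.5 in mature IL-3 libraries, and 29.6, 26.1 and 24.7 in immature and 31.2, 24.6 and 22.1 in mature TSLP libraries. For this gene the TSLP libraries lay above the IL-3 libraries whatever the fraction. Of the comparisons between the cultures, only that of mature cells passed the test (log2 0.84, adjusted p = 0.00842). Immature and mature cells of a culture did not differ by the test (0.34 ± 0.213, adjusted p = 0.202, and 0.05 ± 0.191, adjusted p = 0.885).

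The nucleotide excision genes were not called higher in immature cells of either culture. Xpa, which verifies the damaged strand (chr4:46155347-46196311, minus strand), was at 11.1, 8.25 and 9.23 CPM in immature and 19.9, 19.2 and 12.6 in mature IL-3 libraries, and 8.08, 6.23 and 7.46 in immature and 14.2, 10.5 and 7.35 in mature TSLP libraries. It was the 1 repair gene called lower in IL-3 immature cells (log2 -0.88 ± 0.279, adjusted p = 0.0165), and the call was lost without IL-3 immature 2 (adjusted p = 0.0971) or 3 (0.0656) and without IL-3 mature 1 (0.0653) or 2 (0.085), and with counts thinned to the smallest library (log2 -0.36, adjusted p = 0.431). In TSLP cultures the value was -0.55 ± 0.289 (adjusted p = 0.177). Ercc1, a subunit of the nuclease that cuts beside the damage, had log2 values of 0.19 ± 0.346 and 0.28 ± 0.307 and did not pass in either culture.

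Of the end-joining genes, Xrcc6 was called between immature and mature cells of both cultures, Prkdc in IL-3 cultures, and Xrcc4 and Lig4 in neither. Xrcc6, the gene for the other Ku subunit, was at 17.9, 13.7 and 18.5 CPM in immature and 4.25, 2.54 and 3.14 in mature IL-3 libraries, and 12, 9.73 and 12.2 in immature and 6.72, 6.78 and 3.37 in mature TSLP libraries, without overlap between fractions. The log2 fold changes of Xrcc6 were 2.3 ± 0.323 for IL-3 and 1 ± 0.293 for TSLP cultures (adjusted p = 2.59e-05 and 0.0199), and the latter call was lost without TSLP immature 1 (0.0588) or TSLP mature 3 (0.0664), with only the libraries of these groups in the fit (0.0571) and with thinned counts (0.0649). Prkdc, the kinase that binds to Ku, was at 10.6, 14.8 and 24.1 CPM in immature and 2.13, 5.8 and 7.19 in mature IL-3 libraries, and 14.7, 16.3 and 18.3 in immature and 2.15, 13.8 and 17.2 in mature TSLP libraries. TSLP mature 1 was far below the others of its group. Prkdc was higher in IL-3 immature cells (1.76 ± 0.554, adjusted p = 0.0162), a call lost without IL-3 immature 3 (0.0781) or IL-3 mature 1 (0.0793), and was not called in TSLP cultures (0.59 ± 0.48, adjusted p = 0.409), where the fractions overlapped. Lig4, the ligase of the last step, was at 11.6, 15.6 and 14.2, then 14.2, 16 and 17.5, then 10.8, 7.39 and 10.8, and 6.18, 10.7 and 15.6 CPM, and the fractions overlapped in both cultures. Its log2 values were -0.18 ± 0.289 and -0.14 ± 0.301, and those of its partner Xrcc4 -0.11 ± 0.382 and 0.65 ± 0.395, none of which passed the test.

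Between the immature cells of the cultures, the share of repair genes called was near that of all genes. In TSLP immature against IL-3 immature cells 4 of 34 were lower and 0 higher by edgeR (11.8%, against 13.3% of all genes tested, 5.9% lower and 7.38% higher). At an unadjusted p under 0.05, 6 were lower and 1 higher, and DESeq2 called 4 lower and 0 higher. The 4 were Rad54l (log2 -0.98 ± 0.203, adjusted p = 0.00543), Rad50 (-0.82 ± 0.22, 0.0229), Bard1 (-0.79 ± 0.242, 0.0421) and Rad51ap1 (-0.94 ± 0.302, 0.0496). The TSLP libraries lay below the IL-3 libraries in 12 genes and above in 1, against 17.8% and 20.2% of all genes tested. Class medians were -0.34, -0.61 and -0.12 for S-phase-linked, sensing, and mismatch, excision and end-joining genes, against 0.04 over all genes. The count was 1 without IL-3 immature 1 or 2, TSLP immature 1 or TSLP immature 3, and 2 without TSLP immature 2, and Rad54l was called each time. Without TSLP mature 1 it was 6, with Nbn (-0.75, adjusted p = 0.0201) and Chek2 (-0.68, 0.0239) added.

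In mature cells the share of repair genes called was not far above that of all genes, with calls in both directions. In TSLP mature against IL-3 mature cells 7 were higher and 3 lower (29.4%, against 24.3% of all genes, 12.4% higher and 11.9% lower). The higher ones were Rad54b, Brca1 (log2 1.47 ± 0.46, adjusted p = 0.0298), Fanci (2.39 ± 0.841, 0.0491), Fancg (1 ± 0.345, 0.0458), Atm (1.59 ± 0.426, 0.0138, with overlap between the groups), Xrcc1 (0.84 ± 0.205, 0.00842) and Parp1 (0.85 ± 0.285, 0.0409). The lower ones were Blm (-1.14 ± 0.213, 0.00189), Fancb (-1.12 ± 0.34, 0.0261) and Rad50 (-0.7 ± 0.245, 0.047). Rad54b was at least 2.97-fold higher, with 12 counts against 0 (adjusted p = 0.00859). The TSLP libraries lay above in 9 genes and below in 5, against 20.9% and 17.7% of all genes. Class medians were 0.91, 0.11 and 0.46, against 0.09 over all genes. With TMM factors from uncalled genes, and also without Rn45s, the split was 4 higher and 3 lower.

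Of the higher calls of the S-phase-linked genes, those of Rad54b, Brca1 and Fanci rested on few reads. Brca1 had 42 and 11 counts, Fanci 16 and 2 and Fancg 74 and 27 in the TSLP and IL-3 mature groups. Blm and Rad54b passed under every alternative in which they were tested, while the other 8 were lost under some. Fanci was lost in 17 of 19, Fancg in 17 of 20, Parp1 in 14 of 21 and Rad50 in 7 of 21 alternatives, Brca1 in 5 of 20, Atm and Fancb in 4 of 21 each, and Xrcc1 in 1 of 21. Without TSLP mature 1 the count was 4 higher and 4 lower: Brca1 (adjusted p = 0.0609), Fanci (0.122), Fancg (0.113), Rad50 (0.0809) and Parp1 (0.171) were not called, and Prkdc (1.56, 0.00693) was called higher and Nbn (-1.04, 0.0203) and Xpa (-1.04, 0.0105) lower. It was 4 in all without IL-3 mature 1 or 2 and 5 without TSLP mature 3. With only the libraries of these groups in the fit, 20 of the 34 genes passed the filter, 3 were called and the S-phase-linked median became -0.8.

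**Figure D5:**
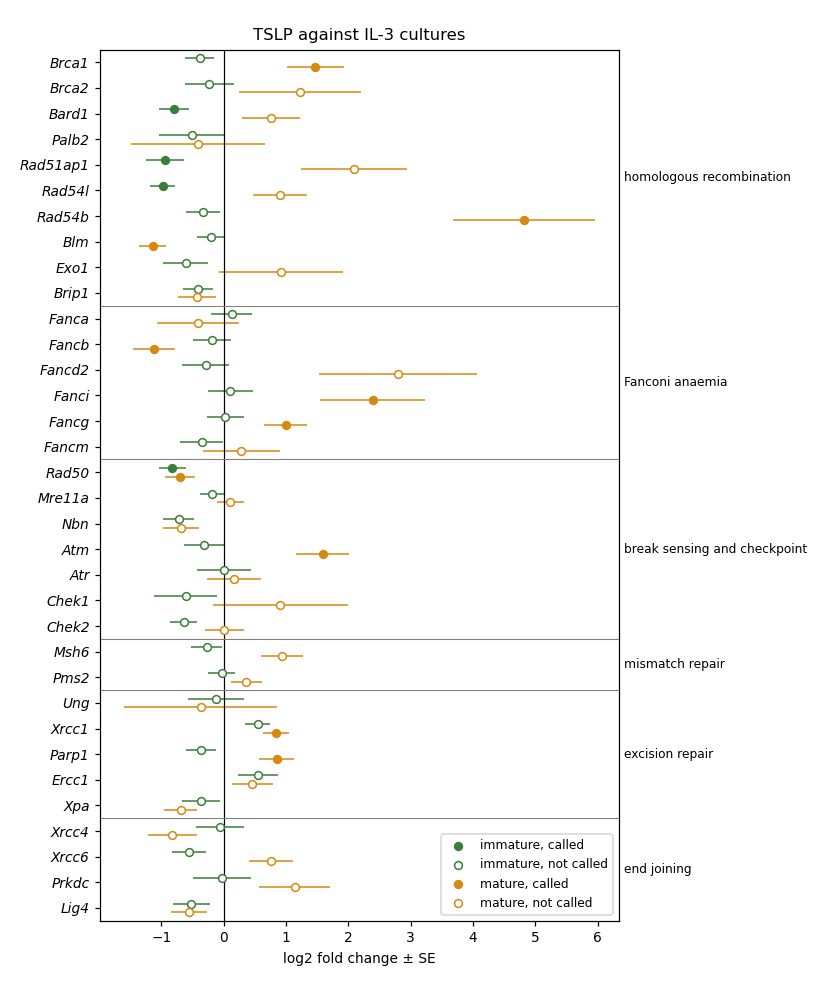
Log2 fold change of TSLP against IL-3 cultures (x axis, with its standard error) for the 34 repair genes, in immature cells (green) and mature cells (orange), where filled points passed the test. Immature values lie between -0.98 and 0.55, and mature values between -1.14 for Blm and 4.82 for Rad54b, the latter with 0 counts in IL-3 mature cells.

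The maturation effect itself was smaller under TSLP for a pair of genes, a share near that of all genes. The difference between the immature against mature log2 fold changes, TSLP minus IL-3, passed for Rad54l (-1.88 ± 0.476, adjusted p = 0.0355) and Rad54b (-5.15 ± 1.17, 0.0234, a fitted value that depends on the prior count), and 0 genes were called in the other direction (5.88% of the list, against 4.18% of all genes, 2.04% lower and 2.14% higher). At an unadjusted p under 0.05, 11 were lower and 1 higher, and DESeq2 called 4 lower and 0 higher, which were Rad54b, Brca1, Atm and Parp1 and did not include Rad54l (-1.93, adjusted p = 0.0562). Brca1 was near the threshold (-1.85 ± 0.515, adjusted p = 0.0544), as were Atm (-1.9 ± 0.542, 0.0595) and Rad51ap1 (-3.03 ± 0.887, 0.0663). Blm had a value of the other sign (0.93 ± 0.297, adjusted p = 0.093). Class medians were -1.5, -0.3 and -0.29, against 0.02 over all genes. The count was 4 without TSLP mature 1, with Atm (-2.19, 0.00758) and Rad51ap1 (-3.23, 0.049) added, 0 without IL-3 mature 1 (unadjusted, 11 lower and 1 higher), and 1 without any single IL-3 immature library, TSLP immature 2 or 3, or TSLP mature 3. Without IL-3 mature 2 neither Rad54l (adjusted p = 0.133) nor Rad54b (0.0698) was called, and Atm (-2.43, 0.0451) and Parp1 (-1.6, 0.0413) were. Without IL-3 mature 3 neither Rad54l (0.0744) nor Rad54b (0.0564) was called, and Brca1 (-2.46, 0.0324) and Rad51ap1 (-5.88, 0.0224) were. Without TSLP mature 2 Rad54l was lost (0.0523) and Brca1 was called (-2.03, 0.0437). These comparisons share libraries, so their values for a gene are not independent.

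Between immature and mature cells, proliferation markers moved with the S-phase-linked genes. Between the mature groups the sums of these lists went opposite ways, while their medians had the same sign. The median log2 fold change of TSLP mature against IL-3 mature cells was 0.91 for the S-phase-linked genes (11 of 16 positive). For the proliferation markers it was 1.54 (24 of 24 positive). All 24 of a list that includes Mki67 were higher in immature cells of both cultures, against 22.1% and 12.2% of all genes. Their medians were 5.21 in IL-3 and 2.72 in TSLP cultures. Their sum was 2910 to 3030 CPM in immature and 177 to 186 in mature IL-3 libraries. In TSLP libraries it was 2100 to 2170 in immature and 392 to 432 in mature cells. In mature cells 16 of 24 were higher under TSLP, against 12.4% of all genes, and in immature cells 4 were lower, against 5.9%. The difference of the maturation effect was called for 13, all negative, against 2.04% of all genes, with a median of -2.05. The S-phase-linked repair genes summed to 288 to 342, 72 to 83.8, 224 to 243 and 52.4 to 62.4 CPM in the same order, higher in IL-3 mature than in TSLP mature libraries. Without Blm, which was left out after its values were seen, the other 15 summed to 247 to 302, 25.2 to 35.9, 187 to 203 and 34.1 to 36.8 CPM, and the ranges of the mature groups overlapped. The part of cycling cells in the repair values was not tested.

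Other repair genes, 100 further symbols of the same roles of which 93 were tested, gave the members a wider setting. In IL-3 cultures 42 were higher and 7 lower in immature cells (median 0.83), against 22.1% and 24.1% of all genes. In TSLP cultures 32 were higher and 3 lower (0.37), against 12.2% and 12.9%. By role, 18 of 27 homologous recombination, 11 of 18 sensing and checkpoint, 3 of 5 mismatch, 8 of 29 excision, 2 of 9 Fanconi anaemia and 0 of 5 end-joining genes were higher in IL-3 immature cells, against 22.1% of all genes, a share that the excision and Fanconi anaemia genes were near. Lower were 4 excision, 2 homologous recombination and 1 sensing and checkpoint gene. Lig1, the replicative ligase that also closes excision gaps, was at 166 ± 32.8 CPM in immature and 1.23 ± 1.14 in mature IL-3 cells, and 69.2 ± 2.36 in immature and 9.23 ± 4.43 in mature TSLP cells (SD, n = 3). Its maturation effect differed between the cultures (-4.08 ± 0.541, adjusted p = 0.00042). It was higher in immature than in mature cells of both cultures, and higher in TSLP mature than in IL-3 mature cells (adjusted p = 0.00111).

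The single-strand binding gene Rpa1 was less steep (log2 2.27 ± 0.182 in IL-3 and 1.39 ± 0.176 in TSLP cultures), and so was Usp1, which removes ubiquitin from FANCD2 (1.57 ± 0.198 and 1.42 ± 0.199). Ube2t, which adds it, had 5.44 ± 0.512 and 2.62 ± 0.409, the checkpoint mediator Clspn 5.32 ± 0.329 and 3.42 ± 0.284, the glycosylase gene Neil3 5.38 ± 0.422 and 4.2 ± 0.365, and the histone gene H2afx 3.69 ± 0.257 and 2.4 ± 0.239. All of these passed in both cultures, and the mismatch gene Pms1 passed in IL-3 cultures (3.32 ± 0.711) but not in TSLP cultures (1.36 ± 0.582, adjusted p = 0.0998). Among end-joining genes, the polymerase gene Polm was at 2.95 ± 0.384, 2.84 ± 0.302, 4.54 ± 1.05 and 8.44 ± 2.03 CPM in the 4 groups and was higher in TSLP mature than in IL-3 mature cells (1.56 ± 0.346, adjusted p = 0.00512). The nuclease gene Dclre1c was lower there (-0.84 ± 0.24, adjusted p = 0.0185), and neither passed between immature and mature cells of a culture.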

How the data were processed

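Polyadenylated RNA of 12 sorted BMBA libraries was sequenced on an Ion Proton instrument after whole-transcriptome PCR. The authors deposited 1 table of unnormalised read counts by gene symbol. Per the methods of the study, reads were trimmed with Cutadapt and aligned with Bowtie2 to reference RNA of the GRCm38 assembly, while the submitters' processing notes list the builds GRCm39 and mm10. Coordinates here are GENCODE vM21 and RefSeq on GRCm38. How multi-mapping reads and strand were treated is not given in the sources used here. Rn18s and Rn28s1 together held 98.2% to 99.9% of the Rn45s counts, so a read that fitted several rows may have been counted in each, and the 3 rows made up 14.7% to 40.1% of a library. An unnamed row equal to the sum of the others (50% of each column) was left out, and 0 sample columns were unused.

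Counts were tested with edgeR 4.0.16 in R 4.3.3 (filterByExpr with minimum count 10 and minimum total 15, TMM, a quasi-likelihood F test in 1 fit of 4 group means over 12 libraries without a block). The Benjamini-Hochberg adjustment ran over all 10861 genes tested, and genes were called at an adjusted p under 0.05. The common biological coefficient of variation was 20.4%. Log2 fold changes carry standard errors (the absolute value over the square root of F). CPM are counts over TMM-scaled totals. Folds of counts carry 95% exact binomial intervals, and a group with 0 counts was set to 3 counts over the group. Since PCR reads carried no molecular identifiers, these intervals and floors speak of counting error alone. The study names 3 cultures a group, so p-values speak of the spread between the cultures of a group. Whether immature and mature fractions came from the same cultures is not stated, and the fit treated all libraries as independent.

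Alternatives were DESeq2 1.42.0, RLE size factors, TMM on uncalled genes, counts without Rn45s, no filter, 10 CPM in at least 3 libraries, only the groups compared, thinning to the smallest total, a replicate block and leaving out each library. The method was tested on simulated data. Members, gene lists and tests were chosen with earlier results of these data known. Values in every library are given for the 3 genes of each role with the smallest p in the test of any difference among the 4 groups, for genes called in the difference of the maturation effect or against the majority of their class, and for Atm. Of other repair genes the 2 with the smallest p of each role are named, except for 2 genes that are not reported here.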

Additional observations from a re-analysis of the deposited data

Results flagged for a closer look

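The immature against mature difference of a pair of genes differed between the cultures by a test of the difference itself. That pair was 5.88% of the list, near the 4.18% of all genes called by this test. The difference was smaller in TSLP than in IL-3 cultures by a log2 value of -1.88 for Rad54l and -5.15 for Rad54b. For Rad54l the adjusted p was 0.0355 by edgeR and ran from 0.0301 to 0.133 over 20 alternatives, of which 12 lost the call. For Rad54b it was 0.0234 and ran from 0.00698 to 0.0726, and 4 lost the call. All alternatives kept the sign. In Rad54b the difference rests on 0 counts in IL-3 mature and 12 in TSLP mature cells. Of its 50-base stretches, 34.5% also occur in transcripts of Fsbp, which went the same way.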

How the results depend on the processing

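Of the calls between immature and mature cells, 25 of 27 (IL-3) and 21 of 25 (TSLP) passed in every alternative that tested the gene. Some genes with few counts were not tested in all, as Palb2 in 19 (IL-3) and 18 (TSLP), against 21 for Brca1. When single libraries were left out, the counts of called genes were 25 to 27 and 23 to 25. No called gene changed sign. The sizes of genes with few counts moved, as for Exo1 (log2 4.85 to 8.76 in IL-3 cultures) and Chek1 (3.73 to 7.59). Between the cultures 1 of 4 calls in immature and 2 of 10 in mature cells passed in every alternative that tested the gene. For the difference of the maturation effect it was 0 of 2 (0 genes by edgeR in the thinned counts, 11 at an unadjusted p under 0.05). Counts of called genes that moved by over 1.5 times were 2 in place of 4 in immature cells with thinned counts, 3 in place of 10 in mature cells with only the groups compared, and, in place of 2 for the difference of the maturation effect, 4 with DESeq2, 6 without a filter, 0 with thinned counts and 5 with the replicate block. With single libraries left out these counts ran from 1 to 6, 4 to 8 and 0 to 4.

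Medians moved as follows. For S-phase-linked genes in IL-3 cultures the value was 4.98 with the 10 CPM filter (4.54 in the main analysis, 4.26 to 4.73 with libraries left out). For mismatch, excision and end-joining genes it was 0.99 with thinned counts (1.3). In mature cells the S-phase-linked median was -0.8 with only the groups compared, where fewer genes were tested, and 0.71 with thinned counts (0.91, and 0.38 to 0.98 with libraries left out), and the mismatch, excision and end-joining median 0.73 with the 10 CPM filter (0.46, and 0.21 to 0.67). For the difference of the maturation effect the S-phase-linked median was -1.25 with thinned counts (-1.5, and -1.59 to -0.87). The causes of the other moves were not tested. The 10 CPM filter shifted the median of all genes by 0.11 between immature and mature cells.

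Libraries with a replicate number in common were slightly more alike. Deviations from group means correlated at -0.08 to 0.39 over 18 such pairs, with 6 over 0.1. Over 36 other pairs they correlated at -0.31 to 0.27, with 2 over 0.1. The replicate block raised the calls over all genes, as from 5019 to 5248 between IL-3 immature and mature cells. With the replicate block the counts were 27, 25, 5, 11 and 5, the last in place of 2. Depth limits the mature cells, where many S-phase-linked genes had few counts.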
